A study of Mus musculus with 10 samples.

Results

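Hmox1 and 9 other genes of the oxidative stress response (Nfe2l2, Keap1, Nqo1, Gclc, Gclm, Txnrd1, Srxn1, Fth1 and Ftl1) were followed by name through a RIP-seq experiment on the RNA-binding protein MEX3A. Of these 10 genes, 9 were found by name in the matrix of 15899 genes, and Nqo1 was not analysed here. The set was chosen with FLAG-over-WT values of these same libraries already known, so the FLAG-over-WT values of its genes are a description and are given with no test. RIP-seq sequences the RNA that comes down with an antibody. Here the antibody was against FLAG, and the cells were neurosphere cultures from the subependymal zone of the adult mouse brain (age in the labels 10 weeks), grown in suspension with EGF and FGF. FLAG cultures came from Mex3aFLAG/FLAG knock-in mice, in which the tag sits on the endogenous gene, and WT cultures came from Mex3a+/+ mice of the same background, in which the antibody has no target and only nonspecific RNA is retained. The immunoprecipitation was done on crosslinked cells (2 FLAG and 2 WT libraries) or on native lysates without crosslinking (3 FLAG and 3 WT libraries). The methods call the replicates biological, and the labels do not name the animal or culture behind each. Input RNA was not analysed here, and more MEX3A-bound RNA per transcript and more transcript in the culture cannot be told apart from a FLAG-over-WT value.

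NRF2, the product of Nfe2l2, is the transcription factor that turns on antioxidant genes, and KEAP1 holds it in the cytoplasm and marks it for degradation until oxidants or electrophiles modify KEAP1. The targets of NRF2 include the enzymes of glutathione synthesis, the thioredoxin system and haem oxygenase 1 (Hmox1), which opens the haem ring and releases iron, carbon monoxide and biliverdin. The freed iron is stored in ferritin, a shell built of heavy (Fth1) and light (Ftl1) chains, whose translation is held back by iron regulatory proteins bound to a hairpin in the 5′ UTR when iron is low. MEX3A belongs to the MEX-3 family of KH-domain proteins, which bind the 3′ UTR of mRNAs.

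The sequence features of the transcripts are shown first, because MEX-3 proteins bind a short element in the 3′ UTR and the ferritin chains carry an iron-responsive hairpin. The MEX-3 recognition element was searched in the longest 3′ UTR among the coding transcripts of each gene (GENCODE M21, GRCm38). The element was written as A, G or T, then G or T, then AG, then 0 to 8 bases of any kind, then a T, a base other than G, and TA. It was found in 6 of the 9 genes, against 77.2% of 12108 coding genes with a 3′ UTR. Nfe2l2 carried 2 elements in 448 bases (overlapping matches counted once) and Gclm carried 13 in 4335 bases, whereas Hmox1 (570 bases), Fth1 (156 bases) and Ftl1 (163 bases) carried none. Short 3′ UTRs hold few elements in general. Among the coding genes with a 3′ UTR of similar length, 62.7% had at least 1 element for Hmox1, 25.5% for Fth1 and 25.9% for Ftl1. With the other known ending of the element (AT in place of TA), 7 of the 9 genes had a match, against 76.8% of the coding genes, and Hmox1 was the gene added. Among the coding genes with a 3′ UTR as long as that of Hmox1, 62.2% had a match of this form. The Hmox1 match and 1 of the 2 Nfe2l2 elements are printed 5′ to 3′ with the element in capitals, as letters found in the 3′ UTR and not as measured binding sites.
Hmox1, chr8:75100433-75100450, plus strand: ctaccAGAGTAATggtat
Nfe2l2, chr2:75675665-75675685, minus strand: cagtcATAGACTTATAtgaca

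Both ferritin transcripts carried the iron-responsive element in the 5′ UTR, searched as a C, 5 bases, CAGTG, 1 base and 5 bases that pair with the first 5. This hairpin was found in 16 of 12068 coding genes with a 5′ UTR (0.133%), and in no other gene of the set. The hairpins are printed with the 6 loop bases in capitals.
Fth1, chr19:9982733-9982759, plus strand: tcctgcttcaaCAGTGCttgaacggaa
Ftl1, chr7:45459780-45459806, minus strand: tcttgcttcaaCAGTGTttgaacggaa

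Hmox1 (ENSMUSG00000005413, chr8:75093621-75100589) had the largest FLAG-over-WT value of the 9 genes with all libraries and with crosslinking. All values are the deposited log2 values, in which 1 unit is a doubling. With crosslinking, Hmox1 stood at 1.64 and 1.82 in FLAG and at -0.19 and 0.39 in WT. In native conditions, Hmox1 stood at 1.97, 1.75 and 1.62 in FLAG and at 0.14, 1.24 and 0.14 in WT. Every FLAG library was above every WT library of its protocol, the FLAG libraries lay close together, and WT native replicate 2 was the highest of the WT libraries. The log2 fold change was 1.41 ± 0.26 (SE) over all 10 libraries, which is 2.66-fold, 1.63 ± 0.26 with crosslinking and 1.27 ± 0.40 in native conditions. The value over all libraries was above that of 98.7% of all genes. These are low values. Not corrected for length, the value of Hmox1 was at the 5.3 to 23.0 percentile of all genes in the WT libraries and at the 28.9 to 34.7 percentile in the FLAG libraries. With a pseudocount of 1, the log2 fold change over all libraries was 0.93.

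The regulators had smaller FLAG-over-WT values. Nfe2l2 stood at 4.52 and 4.64 in crosslinked FLAG against 4.37 and 4.30 in WT. Its native values were 4.60, 4.98 and 5.19 in FLAG against 4.57, 4.57 and 4.51 in WT, so the groups did not overlap, but the lowest FLAG library lay next to the WT libraries. The log2 fold change over all libraries was 0.32 ± 0.12. Keap1 did not separate the groups. Its crosslinked values were 2.22 and 1.92 in FLAG and 1.97 and 2.13 in WT. Its native values were 3.38, 2.06 and 3.03 in FLAG and 1.91, 2.13 and 1.90 in WT, and FLAG native replicates 1 and 3 alone stood above the rest. The log2 fold change of Keap1 was 0.51 ± 0.26 over all libraries and 0.05 without those 2 libraries.

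The subunits of glutamate-cysteine ligase, the enzyme of the first step of glutathione synthesis, differed from each other. The modifier subunit Gclm stood at 4.02 and 3.93 in crosslinked FLAG against 3.75 and 3.59 in WT. In native conditions it stood at 4.03, 3.77 and 4.33 in FLAG against 3.42, 3.71 and 3.55 in WT. Every FLAG library was above the WT libraries of its protocol, and the log2 fold change was 0.41 ± 0.13. The catalytic subunit Gclc ranged from 4.49 to 4.73 in FLAG and from 4.38 to 4.70 in WT, the groups overlapped in both protocols, and the log2 fold change was 0.07 ± 0.09.

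Thioredoxin reductase 1 (Txnrd1), which reduces oxidised thioredoxin, ranged from 5.48 to 6.16 in FLAG and from 5.41 to 5.58 in WT, and the groups overlapped in both protocols, with a log2 fold change of 0.17 ± 0.13. Sulfiredoxin (Srxn1), which restores overoxidised peroxiredoxins, stood at 0.57 and 0.46 in crosslinked FLAG against -0.27 and 0.39 in WT, and at 1.82, 0.97 and 2.20 in native FLAG against 0.09, 1.09 and -0.38 in WT. The native groups overlapped, since WT native replicate 2 was above FLAG native replicate 2. The log2 fold change of Srxn1 was 1.02 ± 0.36 over all libraries.

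Both ferritin chains separated FLAG from WT within each protocol. Fth1 (chr19:9982703-9985092) stood at 3.22 and 2.82 in crosslinked FLAG against 2.32 and 2.50 in WT. In native conditions it stood at 6.04, 4.62 and 5.65 in FLAG against 4.37, 4.46 and 3.63 in WT. The log2 fold change was 1.02 ± 0.28 over all libraries. Ftl1 (chr7:45457944-45459884) stood at 3.29 and 3.13 in crosslinked FLAG against 2.36 and 2.67 in WT. In native conditions it stood at 5.62, 4.80 and 5.44 in FLAG against 4.45, 4.66 and 3.86 in WT, with a log2 fold change of 0.86 ± 0.20 over all libraries. The chains varied together, with a Pearson correlation of 0.99 over the 10 libraries, which is a description and includes the differences between protocols and genotypes.

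**Figure D1:**
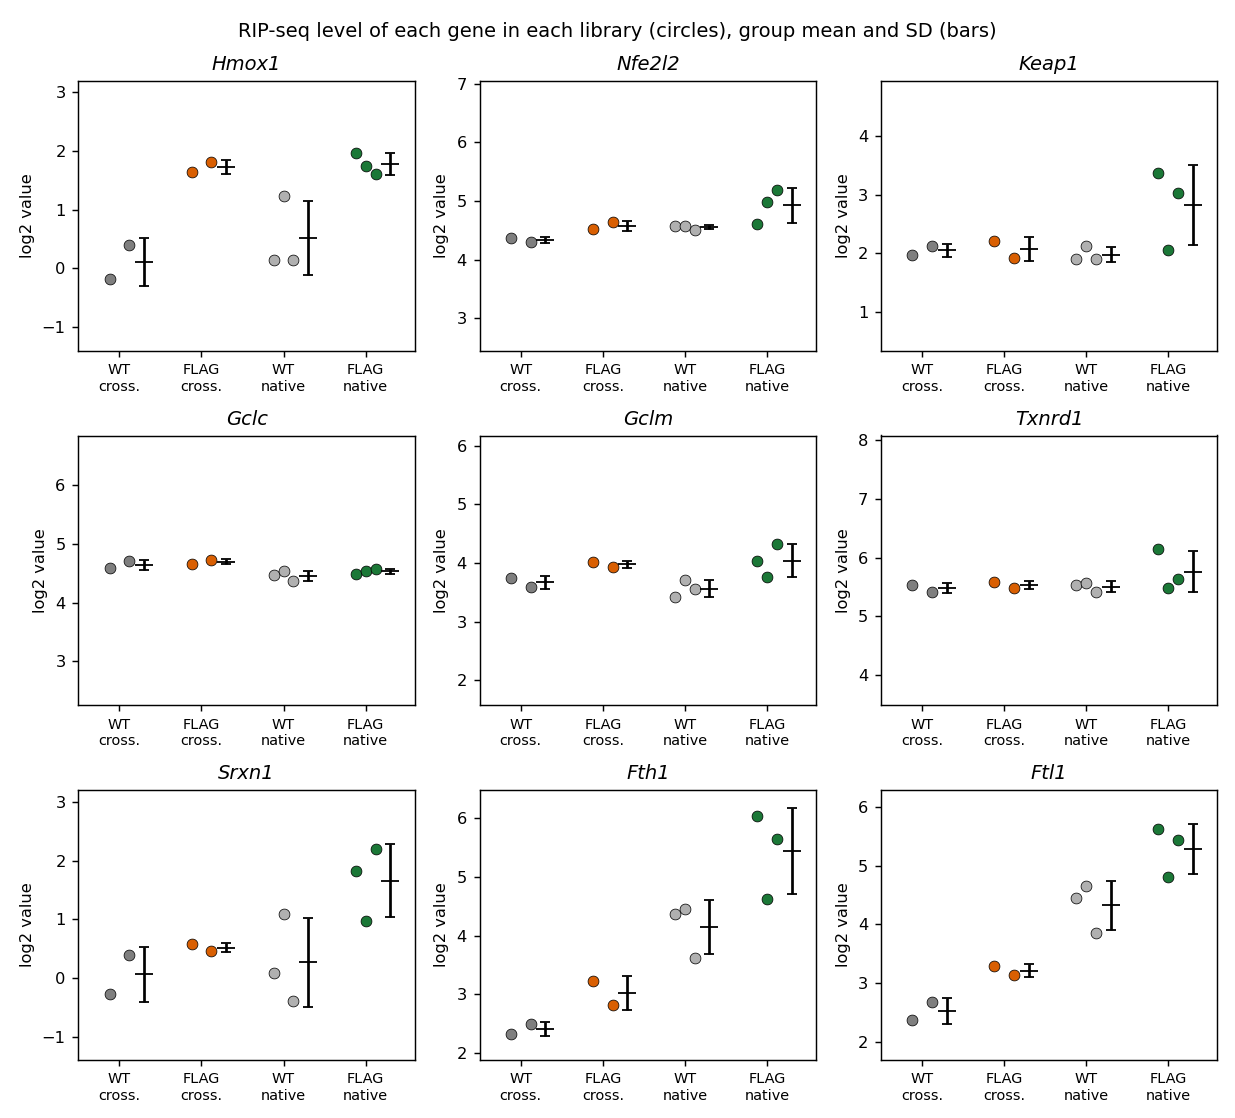
Log2 value of the 9 genes in each of the 10 libraries (circles), with the mean and SD of each group (bars), and panels of equal height on the y axis. Hmox1 separates FLAG from WT at a similar FLAG level in both protocols (means 1.73 and 1.78), whereas Fth1 and Ftl1 also differ between crosslinked and native libraries.

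Over the set, 9 of 9 genes had a positive FLAG-over-WT value over all libraries, against 46.8% of all genes. The median was 0.51, against -0.03 over all genes, and 4 genes were over the study's threshold of 0.58, against 10.3% of all genes. In 5 of the 9 (Hmox1, Nfe2l2, Gclm, Fth1 and Ftl1), every FLAG library was above every WT library of its protocol, against 4.84% of all genes. These counts carry no test, because the set was chosen on this contrast. With each library left out in turn, the log2 fold change of Hmox1 was 1.29 to 1.63. Within a single protocol, no gene was called higher in FLAG by limma (0% in each protocol), with 442 genes at an unadjusted p under 0.05 and over the threshold with crosslinking and 1235 in native conditions. Called lower in FLAG were no gene with crosslinking (0%, with 157 genes at an unadjusted p under 0.05 and below the threshold) and 17 genes in native conditions (0.107%), none of them in the set. The study fitted a count model to read counts at the same thresholds and reported RNAs enriched in both protocols. The absence of higher calls here belongs to limma on the deposited log2 values and does not mean that no RNA was bound.

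FLAG native replicates 1 and 3 differed from the other libraries in their lowest values and their correlations. They had 329 and 178 genes at their lowest value, against at most 3 elsewhere, and correlated less with the crosslinked FLAG libraries (0.906 to 0.915) than FLAG native replicate 2 did (0.956 and 0.965). By other measures FLAG native replicate 2 was the odd library. Its array weight was the lowest of all libraries (0.189, against 0.33 and 0.721 in replicates 1 and 3). Mex3a stood at 4.03 in replicate 2, against 5.95 and 6.10 in replicates 1 and 3. Which of these libraries is typical of the native pulldown was not tested. Leaving out FLAG native replicates 1 and 3 keeps replicate 2 as the only native FLAG library. Without those 2 libraries, the log2 fold change over all libraries was 1.46 for Hmox1, 0.60 for Ftl1, 0.55 for Fth1, 0.56 for Srxn1, 0.26 for Gclm, 0.05 for Keap1 and 0.02 for Txnrd1, which was at -0.02 in native conditions. The count of genes of the set with every remaining FLAG library above the WT libraries was 5 as before, while the share of all genes with that order rose to 7.54%. Hmox1 thus kept its value, the ferritin chains, Srxn1 and Gclm kept their direction with a smaller value, and Keap1 and Txnrd1 were near 0. With single libraries left out, Txnrd1 was at 0.055 to 0.24 over all libraries.

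**Figure D2:**
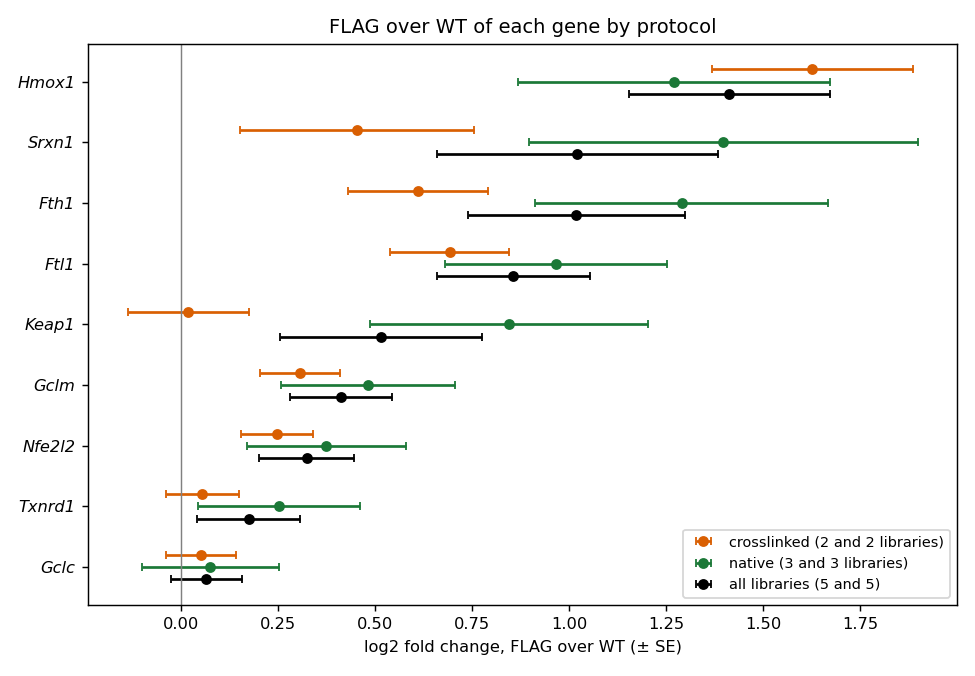
Log2 fold change of FLAG over WT (x axis, ± SE of the limma fit) for each of the 9 genes, with crosslinking (orange), in native conditions (green) and over all libraries (black). Hmox1 lies between 1.27 and 1.63 in all of them, and Keap1 is at 0.02 with crosslinking and 0.84 in native conditions.

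Whether FLAG over WT differed between the protocols was tested over all genes with an interaction term in 1 limma fit of the 4 groups. It rests on the same FLAG-over-WT values as the choice of the set, so the values of the set are a description. No gene was called in either direction (0% and 0%), with 37 and 29 genes at an unadjusted p under 0.05 and over the threshold in each direction, none of them in the set. The native minus crosslinked difference was -0.36 ± 0.55 for Hmox1, 0.94 ± 0.72 for Srxn1, 0.83 ± 0.49 for Keap1 and 0.68 ± 0.56 for Fth1. With errors of this size, a difference of 1 log2 unit between the protocols could not be resolved for these 4 genes.

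The same fit tested crosslinked over native libraries within each genotype, which is where the ferritin chains stood apart from the rest of the set. In WT, Ftl1 fell by 1.80 ± 0.29 with crosslinking (adjusted p = 0.044, limma), so it was 3.49-fold higher in native libraries. Fth1 was at -1.74 ± 0.40 in WT and did not pass the test (adjusted p = 0.139). In FLAG, both passed it. Fth1 fell by 2.42 ± 0.40 (adjusted p = 0.048) and Ftl1 fell by 2.08 ± 0.29 (adjusted p = 0.038). So 1 of 9 genes in WT and 2 of 9 in FLAG were called lower with crosslinking, against 0.289% and 0.396% of all genes. Hmox1 was at -0.41 ± 0.39 in WT and -0.05 ± 0.39 in FLAG, and the other 6 genes were between -1.15 and 0.19 in the 2 genotypes and did not pass the test.

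These calls lay near the threshold. The ferritin values stayed negative in all 20 alternative fits of each contrast, between -1.57 and -2.83, but the adjusted p of Ftl1 ranged from 0.0024 to 0.322 in WT and from 0.0037 to 0.473 in FLAG. In WT, the call of Ftl1 was lost when any single library other than FLAG native replicates 1 and 2 was left out. In FLAG, both genes and also Keap1 were called without FLAG native replicate 2, Ftl1 alone was called without WT native replicate 2 or 3, and neither was called when any of the other 7 libraries was left out. Same-numbered crosslinked and native libraries of a genotype deviated together (correlations of 0.154 to 0.388 in 4 pairs), with 2 pairs in each genotype. With the number within each genotype as a block, a fit chosen after seeing the data, neither gene was called (adjusted p of Ftl1 0.121 in WT and 0.0955 in FLAG, and of Fth1 0.136 and 0.0955). Short transcripts as a class were lower with crosslinking. Coding genes with a longest coding transcript under 1000 bases had a median of -0.31 in WT and -0.47 in FLAG, against 0.02 and 0.10 for those over 4000 bases. Ftl1 (968 bases) is in the first class and Fth1 (1494 bases) in the next, whose median was 0.06 in WT. The same short class had a median FLAG-over-WT value of 0.24 over all libraries, and with a length trend removed Fth1 was at 1.01, Ftl1 at 0.82 and Hmox1 at 1.40 in FLAG over WT. With that trend removed, Ftl1 was at -1.65 (adjusted p = 0.0581) in WT and at -1.92 (adjusted p = 0.0531) in FLAG for crosslinked over native, and Fth1 was at -1.80 (adjusted p = 0.128) and -2.45 (adjusted p = 0.0546), so neither chain was called.

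**Figure D3:**
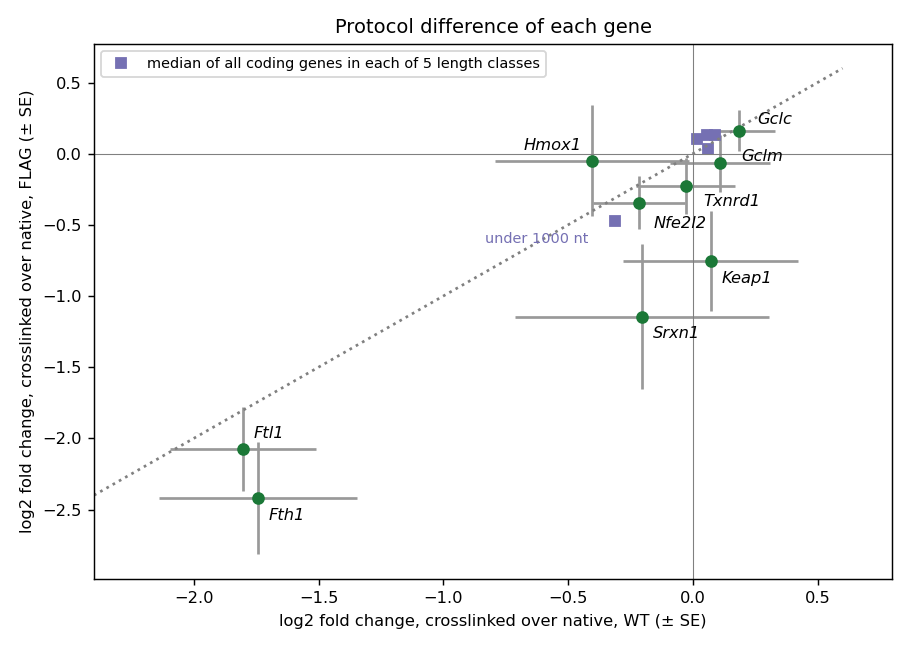
Log2 fold change of crosslinked over native libraries in WT (x axis) and FLAG (y axis), ± SE, for the 9 genes (circles), with the median of coding genes in 5 classes of transcript length (squares) and the line of equal change (dotted). Fth1 and Ftl1 lie below -1.7 on both axes, and the other 7 genes lie between -1.15 and 0.19.

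Levels were compared between genes only per kilobase of the longest coding transcript. With crosslinking, Txnrd1 was the highest of the set per kilobase (log2 value 3.68 in FLAG and 3.62 in WT) and Srxn1 the lowest (-0.97 and -1.43). In native libraries Ftl1 was the highest (5.33 in FLAG and 4.37 in WT) and Srxn1 again the lowest (0.17 and -1.23). Hmox1 was below Keap1 in WT (-0.55 against 0.20 with crosslinking) and above it in FLAG (1.08 against 0.22 with crosslinking). In native libraries the gap between Hmox1 and Keap1 was smaller than their combined SD in both genotypes. Other neighbours in the order that lay within their combined SD were Nfe2l2 and Ftl1 in crosslinked FLAG, Ftl1 and Fth1, Txnrd1 and Nfe2l2, and Keap1 and Srxn1 in native FLAG, and Txnrd1, Fth1 and Nfe2l2 in native WT.

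Some of these transcripts share sequence with other loci, which bears on how far their values belong to them. Of the 75-base windows of the longest coding transcript, 67.5% for Ftl1 and 41.5% for Fth1 occurred elsewhere in the genome (GRCm38), against 0.254% for Gclm and none for the other 6 genes. A read of 75 bases from such a window has more than 1 perfect place to map. Exons of another gene overlapped those of Ftl1, Gclm and Keap1. Gm10252 lies on the opposite strand of Ftl1 (26.5% of its exon bases), Gm17494 opposite Gclm (4.7%) and Gm16754 opposite Keap1 (10.9%), and Gm22133 lies on the same strand as Ftl1 (8.1%). Gm6061, which is not in the matrix, lies on the same strand as Gclm (3.9%). Over the 10 libraries, as a description, the level of each partner in the matrix correlated with its neighbour at 0.96 for Gm10252, 0.967 for Gm17494, 0.873 for Gm16754 and 0.993 for Gm22133. Whether the counting used strand is not given in the sources used here, so reads of the partners cannot be told apart. Hmox1, Nfe2l2, Gclc, Txnrd1, Srxn1 and Fth1 had no such overlap.

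The genes whose pattern over the 10 libraries was most like that of Hmox1 were taken by Pearson correlation among 10204 genes with a mean log2 value of at least 2. They were Adipor1 (0.935), Slc35a5 (0.932), Clip3 (0.916), Gm16033 (0.898) and D030047H15Rik (0.898). None of them is a gene of the oxidative stress lists. Adipor1, a receptor for adiponectin, stood between 3.78 and 4.10 in FLAG and between 3.10 and 3.55 in WT. Clip3 stood between 4.34 and 5.16 in FLAG and between 3.45 and 4.13 in WT. The FLAG-over-WT log2 fold changes of the 5 genes were 0.61 to 0.99, below that of Hmox1. Within the set, Hmox1 correlated best with Srxn1 (0.764) and Gclm (0.729) and least with Gclc (0.292). These correlations are a description that includes the differences between protocols and between genotypes, and the set was chosen on the latter.

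The wider pathway was described with 79 further genes in 9 groups, of which 71 were measured. Over all libraries, 54 of 71 had a positive FLAG-over-WT value (46.8% of all genes), with a median of 0.28 against -0.03 over all genes, and 20 were over 0.58 (10.3% of all genes). In 15 of 71 every FLAG library was above every WT library of its protocol and in 1 every FLAG library was below, against 4.84% and 4.47% of all genes. By limma, 1 gene of 71 rose and 1 fell, against 0.264% and 0.233% of all genes. The list was drawn up with earlier results of these data known, so these counts are a description, and the adjusted p-values carry the same limit. With the replicate number as a block, 0 genes of the list were called in either direction. Gstm1, a glutathione transferase that astrocytes express, rose by 1.07 ± 0.19 (adjusted p = 0.0403). It stood at 2.37 and 2.70 in crosslinked FLAG against 1.81 and 1.62 in WT. In native conditions it stood at 4.22, 3.55 and 4.01 in FLAG against 2.86, 2.84 and 2.32 in WT. Gstm1, Sod2 and Fth1 are in the study's own list of MEX3A-bound RNAs, which was drawn from these samples, so their direction is no independent evidence.

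Bach2, a transcriptional repressor that competes with NRF2 at its target sites and is best known in lymphocytes, fell by 0.74 ± 0.13 (adjusted p = 0.0413). It stood at 9.002 and 9.016 in crosslinked FLAG against 9.74 and 9.47 in WT, and at 8.61, 9.18 and 8.75 in native FLAG against 9.64, 9.55 and 9.83 in WT. Its paralog Bach1, the repressor of Hmox1, was at 0.22 ± 0.17. The next largest values were 1.06 ± 0.25 for Gpx1, a glutathione peroxidase, and 1.01 ± 0.23 for Sod2, the mitochondrial superoxide dismutase, neither of which passed the test (adjusted p = 0.0891 and 0.0847). The smallest after Bach2 were -0.51 ± 0.27 for Mgst1 and -0.39 ± 0.18 for the exporter Abcc1 (adjusted p = 0.292 and 0.254). With single libraries left out, 0 to 10 genes of the list were called higher and 0 or 1 lower. The 10 were reached without FLAG native replicate 2 and 3 without WT crosslinked replicate 2, and no gene of the list was called in either direction when any of the other 8 libraries was left out.

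By group over all libraries, the metallothioneins, small metal-binding proteins, had the highest median (0.92, with 3 of 3 over 0.58), followed by the glutathione group (0.61, with 7 of 13) and the thioredoxins and peroxiredoxins (0.43, with 4 of 12). Mt2 (511 bases) and Mt3 (536 bases) are in the class under 1000 bases, whose median FLAG-over-WT value was 0.24, and Mt1 (1085 bases) is in the next, at 0.07. The part of length in the group medians was not tested. The lowest medians were in iron handling (0.14, with 1 of 9) and haem handling (0.17, with 1 of 9), the groups closest to Hmox1 and ferritin in function, whose counts over 0.58 were near the 10.3% of all genes. In the haem group Hmox2, the constitutive haem oxygenase, was at -0.07 ± 0.18, and the biliverdin reductases Blvra and Blvrb were at -0.04 ± 0.20 and 0.14 ± 0.25. In the iron group the transferrin receptor Tfrc was at 0.47 ± 0.16. The native libraries carried more of these values than the crosslinked ones, with 28 and 10 of 71 genes over 0.58, against 16.4% and 5.24% of all genes. With crosslinking the order of the groups was another one. The glutathione group had a median of 0.14 (3 of 13 over 0.58), below the thioredoxins and peroxiredoxins (0.19, with 1 of 12), NADPH supply (0.19, with 1 of 6) and the partners and repressors of NRF2 (0.16, with 0 of 9), and its native median was 0.76 (7 of 13). The metallothioneins were highest in both protocols, with a median of 0.57 with crosslinking (1 of 3) and 1.01 in native conditions (3 of 3).

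**Figure D4:**
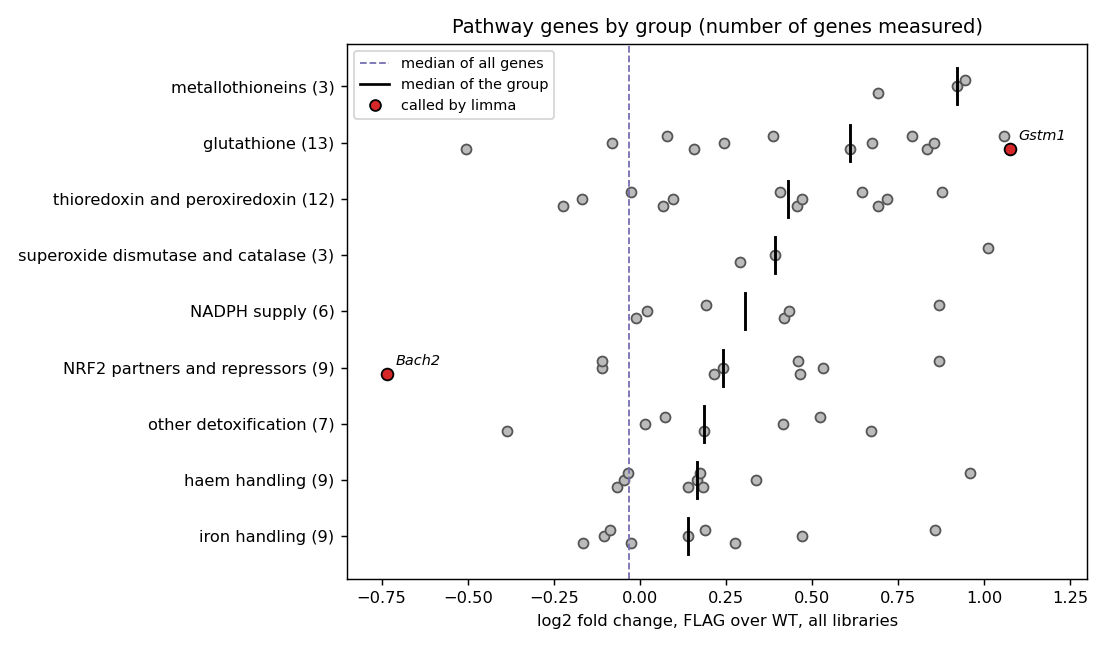
Log2 fold change of FLAG over WT over all libraries (x axis) for 71 pathway genes in 9 groups, with the median of each group (black bar) and of all genes (dashed line at -0.03). Red points are Gstm1 (1.07) and Bach2 (-0.74), which limma called, and the medians run from 0.14 for iron handling to 0.92 for the metallothioneins.

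In the protocol contrasts, Gpx1 was called lower with crosslinking in both genotypes (-2.73 ± 0.39 in WT, adjusted p = 0.0317, and -2.51 ± 0.39 in FLAG, adjusted p = 0.0467). It was the only pathway gene called in either, but the fall was broader than the calls. In WT, 18 of 71 pathway genes lay beyond the fold-change threshold downward and 1 upward. In FLAG, these counts were 29 and 1. Of all 15899 genes, 1423 lay beyond it downward in WT and 2064 in FLAG. The pathway medians were -0.178 and -0.255, against 0.023 and 0.105 over all genes. In both genotypes, all 3 metallothioneins lay beyond it downward (medians -1.398 and -1.691), and 0 of 9 haem handling genes did. Gpx1 stood between -1.47 and 0.13 with crosslinking and between 1.34 and 3.24 in native libraries, with no overlap. With single libraries left out, the call was kept in WT without FLAG native replicate 1, FLAG native replicate 2 or WT native replicate 2, and in FLAG without FLAG native replicate 2 (adjusted p of 0.0195 to 0.214 in WT and 0.0068 to 0.422 in FLAG). It was also lost with the replicate number as a block (adjusted p = 0.0777 in WT and 0.102 in FLAG) or within each genotype (0.133 and 0.177), in WT with a pseudocount of 1 (-1.47, adjusted p = 0.0891) and in FLAG with a length trend removed (-2.35, adjusted p = 0.055). Gpx1 (1072 bases) is in the class of 1000 to 2000 bases, whose medians were 0.06 in WT and 0.03 in FLAG, and with a length trend removed it was at -2.57 in WT (adjusted p = 0.0297).

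Markers of the cells that could have contributed were read from lists for 6 cell types. The neural stem cell and astrocyte list was present (7 of 8 measured). Its summed linear level was 2011 to 2792 in FLAG and 1976 to 2747 in WT, and most of it came from Egfr (log2 values of 10.10 to 10.90) and Slc1a3, the members that were lower in FLAG, at -0.33 and -0.44. The others named here were at positive FLAG-over-WT values, with Vim at 1.01, Sox2 at 0.98, Fabp7 at 0.79 and Nes at 0.52. None of the list passed the test, and its part in the values of Hmox1 was not tested. Microglia and macrophages, a source of Hmox1 in brain tissue, had 3 of 8 markers measured (Cx3cr1, P2ry12 and Csf1r), with a summed level of 31.9 to 33.9 in FLAG and 28.8 to 36.6 in WT and a median FLAG-over-WT value of 0.03. The endothelial list (4 of 6) had a summed level of 15.2 to 26.3 in FLAG and 9.88 to 14.2 in WT. That difference lay in Flt1 (2.23), which was called, while Pecam1, Kdr and Tek were at -0.58, -1.09 and -0.74. Its part in the values of Hmox1 was not tested. The neuroblast list had 1 of 6 (Cd24a, at 1.24), the oligodendrocyte list 2 of 7 (median 0.17) and the erythroid list 1 of 6 (Alas2, at -0.54). Mex3a itself, the gene that carries the tag, was at 1.73 in FLAG over WT, from 3.92 to 6.10 in FLAG and from 2.75 to 3.52 in WT, highest in FLAG native replicates 1 and 3.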

How the data were processed

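RNA from anti-FLAG immunoprecipitates was sequenced with a stranded kit primed by random hexamers, without poly-A selection or fragmentation. For 15899 genes, the authors deposited a table of log2 values, 1 column a library. The authors used Cutadapt and Trimmomatic for trimming, HISAT2 for mapping (GRCm38), featureCounts for counting and a count-based normalization, and the labels also name limma. The deposited log2 values share nearly 1 distribution over the libraries, a step that is not given in the sources used here. Depth per library is unknown and whole reads could not be recovered, so no count model was fitted, and a fold change of a low gene has an unknown counting error. Groups came from the labels.

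Models were fitted in limma 3.58.1 (R 4.3.3; lmFit, eBayes with trend). FLAG over WT came from a fit of all libraries with a term for the protocol and from separate fits of each protocol, and 1 fit of 4 groups gave the contrasts of protocols and the interaction. P-values were adjusted over all genes (Benjamini-Hochberg). Genes with an adjusted p under 0.05 and a log2 fold change over 0.58 in either direction were called, after the study's thresholds. The fit and the motif search were tested on simulated data. For the fit of all libraries, 74 of 100 changes of 1 log2 unit and 100 of 100 changes of 2 units were recovered, with 5 false calls. The simulated spread of each gene was capped at the median spread, with independent libraries, so real genes of larger spread are harder to call. Sequence features came from GENCODE M21, in which 15864 genes were found. The figures and sequence steps used Python 3.11.15.

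The genes of the set and all gene lists were chosen with earlier results of these data known. Named genes were the 10 of the set, the pathway genes called over all libraries with the 3 largest and 3 smallest values, and the 5 genes most correlated with Hmox1. Overlapping genes, the Bach1, Hmox2, Blvra, Blvrb and Tfrc values, the metallothionein lengths, Gpx1 and the groups in the protocol contrasts and the markers were named after their values were seen. The alternatives were a pseudocount of 1, a mean log2 value of at least 2, median scaling, array weights, robust moderation, the replicate number as a block, a length or GC trend removed in 20 bins, 1 fit of 4 groups and each library left out.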

Additional observations from a re-analysis of the deposited data

How the results depend on the processing

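The FLAG-over-WT value over all libraries was positive for each gene of the set in every alternative that gave one (19 for 7 of the genes and 18 for Hmox1 and Srxn1, which a mean log2 value of at least 2 leaves out), and that of Hmox1 ranged from 0.93 to 1.63. With a pseudocount of 1, Hmox1 was at 0.93 over all libraries and 1.05 with crosslinking. The counts were small and moved with the settings, and the cause was not tested. Genes of the set called lower with crosslinking numbered 1 in WT and 2 in FLAG. The count in WT was 0 with a pseudocount of 1, a mean log2 value of at least 2 or a length trend removed, 2 with array weights, and 0 to 2 with single libraries left out. The count in FLAG was 1 with a pseudocount of 1, the filter on low values or a GC trend removed, 0 with a length trend removed, and 0 to 3 with single libraries left out. Pathway genes called higher in FLAG numbered 8 with array weights and 0 to 10 with single libraries left out, and those called lower 0 or 1. Without FLAG native replicates 1 and 3, an alternative chosen after seeing the data, the set had 0 genes called with crosslinking in FLAG and the pathway 0 in each direction. Over all genes, 42 were called higher and 37 lower in FLAG. These counts were 333 and 91 with array weights, 18 higher with the filter on low values, 8 and 10 without those 2 libraries, and 4 to 516 higher and 7 to 219 lower with single libraries left out, the highest without FLAG native replicate 2 and without WT crosslinked replicate 2.

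The labels do not say whether replicate numbers pair FLAG with WT samples. Deviations of same-numbered samples from their group means correlated negatively (-0.149 to -0.43). This cannot exclude a shared preparation. With 2 crosslinked replicates in each genotype, both crosslinked pairs give the same value (-0.274), and crossing the numbers would reverse its sign. Crosslinked and native libraries of a genotype share 2 numbers, whose deviations correlated positively (0.154 to 0.388). With the replicate number as a block, 0 genes of the set were called in either protocol contrast, and likewise with the number within each genotype as a block (chosen after seeing the data). With the replicate number as a block, 0 pathway genes were called in either direction and 14 and 20 genes in all were called higher and lower in FLAG. With the numbers of the crosslinked libraries crossed, an alternative chosen after seeing the data, 0 genes were called within that protocol, as with and without the block.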
